A study of Mus musculus with 12 samples.

Results

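The mitochondrial ribosomal proteins were taken as every protein-coding gene whose symbol starts with Mrpl or Mrps in both expression tables of the series. This rule gave 75 of 15344 genes, of which 46 were Mrpl and 29 were Mrps genes. 2 more rows with such a symbol, Mrpl23-ps1 and Mrpl48-ps, were not coding and were left out. All 75 genes passed the filter on low values, which asked for a normalized count of 10 or more in at least 1 of the libraries compared, in each of the 3 comparisons below.

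The mitochondrial ribosome translates the few messenger RNAs of mitochondrial DNA, which encode core subunits of the respiratory chain and of ATP synthase. Its ribosomal RNAs come from mitochondrial DNA, but all of its proteins are encoded in the nucleus, made in the cytosol and imported, so that the particle depends on both genomes. Skeletal muscle relies on it for oxidative phosphorylation, and inherited defects of several of these genes cause combined oxidative phosphorylation deficiencies. Of the 75 genes, 46 encode proteins with a bacterial counterpart and 28 encode proteins that are particular to mitochondria. The symbols do not always name the subunit, since the products of Mrps30 and Mrps18a sit in the large subunit. Mrps36, the remaining gene, encodes a component of the 2-oxoglutarate dehydrogenase complex rather than a ribosomal subunit, and was kept because the rule is by symbol.

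RNA-Seq was performed on the quadriceps of 12 C57BL/6 mice in 3 groups of 4, with 1 library for each mouse, all harvested at 6 months of age. Pompe disease is a glycogen storage disease caused by loss of acid alpha-glucosidase (GAA), and the comparisons ask how its absence and its replacement change muscle transcripts. The WT group held wild-type mice that were age-matched and received no treatment. The KO group held GAA knock-out mice injected with PBS, and the AAV group held GAA knock-out mice given 2e12 vg/kg of AAV2/8-LSPhGAApA by the tail vein. This vector drives human GAA from a liver-specific promoter, so that the muscle itself was not the tissue meant to express it. The knock-out mice were male and were injected at 2 months of age, and both knock-out groups share the genotype. Between 22122233 and 47379737 reads were counted per library, and the lowest total belonged to AAV library 1.

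The targeted gene, Gaa, went against the labels. Its normalized count was 343, 14640, 324 and 460 in WT libraries 1 to 4, lay between 11936 and 13075 in the KO libraries, and was 947, 587, 500 and 9854 in AAV libraries 1 to 4. The KO libraries thus had the highest group mean, WT library 2 held the highest single value, and WT library 2 and AAV library 4 stood apart from the rest of their groups. Counts per gene do not tell reads of a disrupted allele from those of an intact one. All group names below are those of the labels (libraries labelled WT, KO and AAV), every direction rests on them, and the main counts are also given without the libraries that stood apart. The 7 muscle fibre markers, among them Acta1, Ckm and Tnnt3, summed to between 3384300 and 5603900 normalized counts in the 12 libraries, so that the labelled tissue held its defining markers.

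The summed level of the set was lower in the libraries labelled KO than in those labelled WT, and intermediate in those labelled AAV. Summed over the 75 genes, the normalized count lay between 107130 and 141080 in the WT libraries (median 117885), between 75937 and 87879 in the KO libraries (median 85577.5) and between 95158 and 107360 in the AAV libraries (median 99430.5). The KO libraries therefore overlapped with neither of the other groups, whereas AAV library 3 reached just above the lowest WT library. In quadriceps RNA, fewer cells or fibres of a type and less RNA per cell cannot be told apart. The libraries did not contribute evenly. WT library 2 was the highest of its group for 57 of the 75 genes, and KO library 1 was the lowest of its group for 53. The median coefficient of variation of a gene within a group was 15.2% in WT, 9.54% in KO and 11.1% in AAV libraries.

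**Figure D1:**
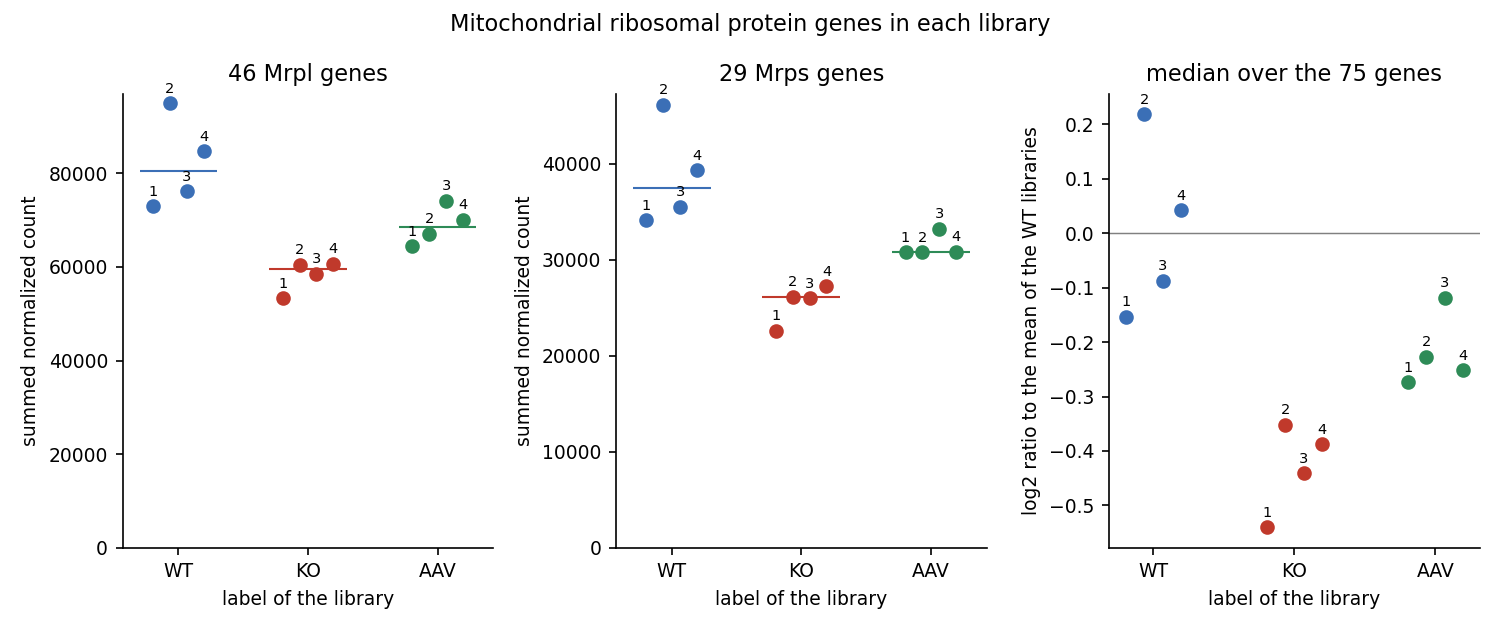
Summed normalized count of the 46 Mrpl genes (left) and the 29 Mrps genes (middle) in each library, and the median over the 75 genes of the log2 ratio to the mean of the WT libraries (right). Points are libraries numbered by replicate and coloured by label, lines in the left and middle panels are group medians. KO libraries lie lowest in all panels, WT library 2 highest.

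The most highly counted members were Mrpl42, with a mean of 5069 over the 12 libraries, Mrpl12 with 4072 and Mrpl30 with 2997. Per kilobase of exon, with all annotated exons of a gene joined, Mrpl12 (2658), Mrps28 (2570) and Mrpl14 (2505) stood highest among the 74 genes with a length. Joined exons can be longer than the transcript present in muscle, so the order per kilobase depends on the annotation and compares genes only roughly. The least counted were Mrpl23 (24.04), Mrps33 (96.7) and Mrps36 (128), and Mrpl23 was also lowest per kilobase at 4.92. Mrpl23 has a processed pseudogene, Mrpl23-ps1, that is 100% identical over 78% of its transcript, so that reads from it may be split or left out and its count is uncertain. Per kilobase, Mrps33 (58.0) and Mrps35 (80.2) were the next lowest.

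Between the libraries labelled KO and WT, 39 of the 75 genes were lower and 0 were higher at an adjusted p under 0.05 (limma with Benjamini-Hochberg adjustment over 14859 genes), against 15.3% of all genes lower and 12.3% higher. The numbers were 21 of 46 Mrpl genes and 18 of 29 Mrps genes. The called genes spanned log2 fold changes of -1.95 to -0.36, that is 0.259 to 0.776 times the WT level on the log2(normalized count + 1) scale, which slightly understates the change of low genes. 10 of them had a log2 fold change of -1 or below, against 8.5% of all genes. Over the 75 genes the median log2 fold change was -0.41, compared with 0.02 over all genes tested, and 68 genes had a negative value (48.3% of all genes). For 49 of the 75 genes, every KO library lay below every WT library (15.1% of all genes). At an unadjusted p under 0.05, 46 were lower (21.8% of all genes) and 1 was higher (20.6%), and no member was called higher by edgeR or DESeq2 on the recovered reads (39 and 44 lower). Over all genes these tools gave 2401 and 2858 lower and 1578 and 2006 higher, compared with 2271 and 1826 by limma. Without WT library 2, 33 members were lower and 0 higher, and 1509 and 1127 of all genes. Without WT library 3, 42 were lower and 3 were higher, namely Mrps18b, Mrpl16 and Mrpl50, while calls over all genes rose to 3578 lower and 3585 higher.

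**Figure D2:**
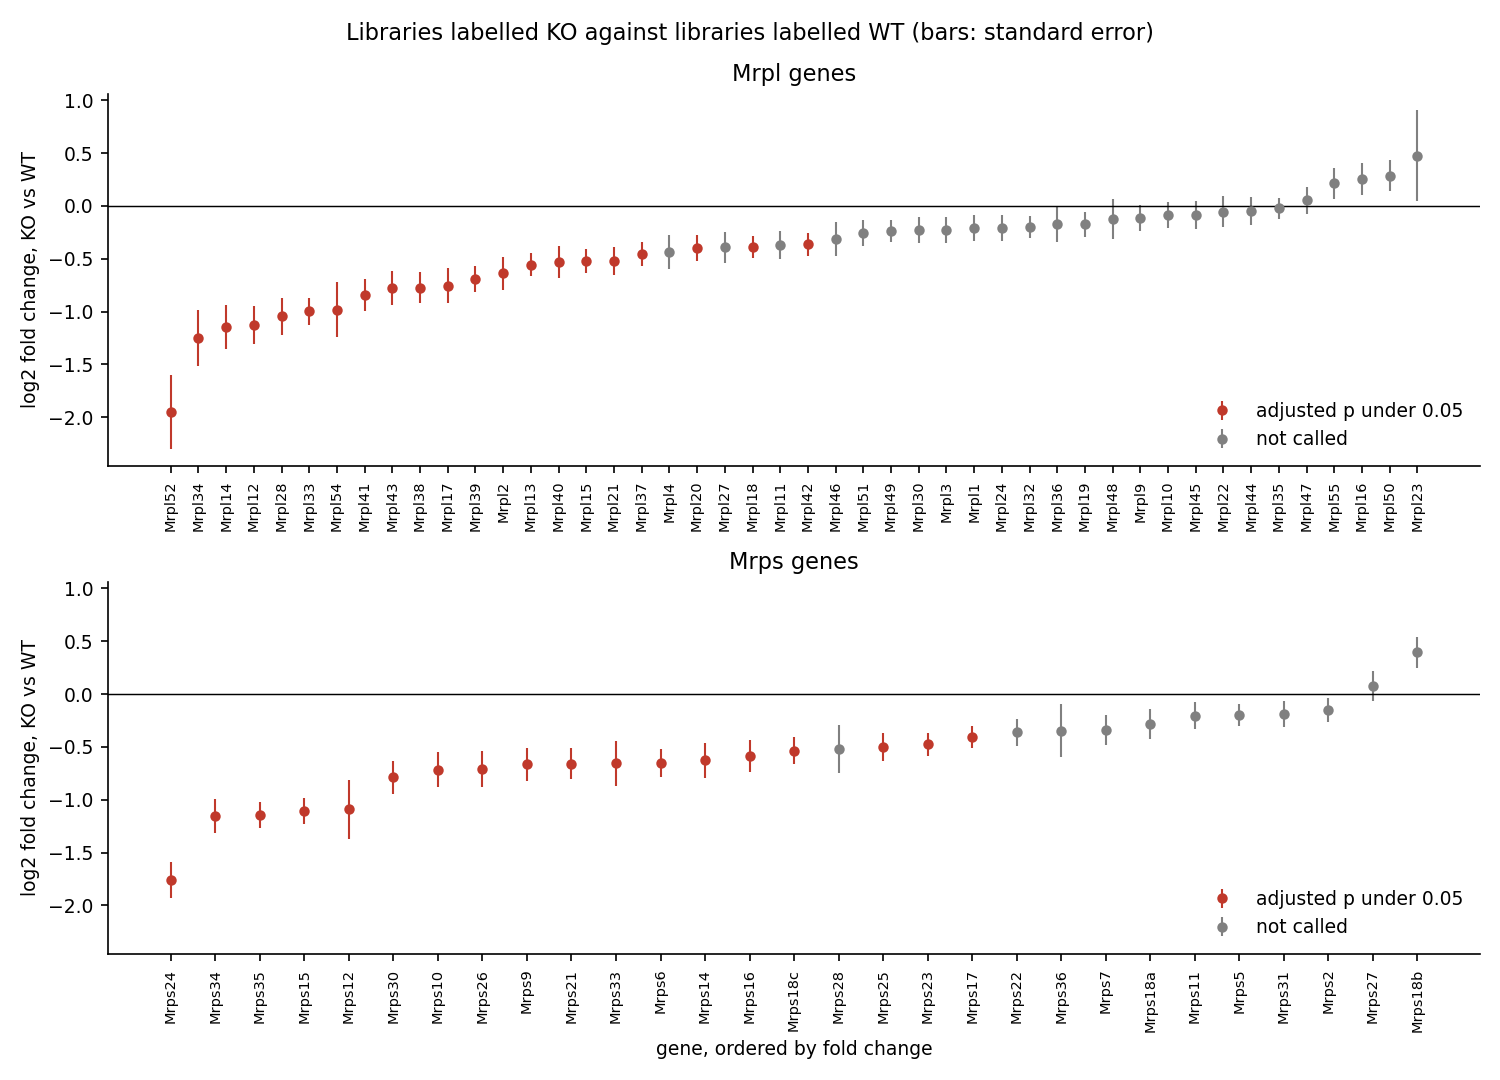
Log2 fold change (vertical axis) of each of the 46 Mrpl and 29 Mrps genes between the libraries labelled KO and WT, ordered by size within each panel, with standard errors as bars. Red points have an adjusted p under 0.05 by limma, all of them below 0, while grey points do not pass.

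The small subunit gene Mrps24 had the lowest adjusted p. Its product is the counterpart of a bacterial protein that lines the channel by which messenger RNA enters the ribosome. Mrps24 (ENSMUSG00000020477, chromosome 11, 5703983 to 5715680, minus strand, GRCm38) gave 1835, 3276, 2137 and 2504 in WT libraries 1 to 4, 647, 684, 765 and 724 in KO libraries 1 to 4 and 797, 871, 1013 and 1106 in AAV libraries 1 to 4. Every KO library and every AAV library lay well below the lowest WT library. Its log2 fold change between KO and WT was -1.76 ± 0.17 (SE, limma adjusted p = 0.000337), with means of 705 ± 50.6 in KO and 2438 ± 622 in WT libraries (SD, n = 4). Of its exonic bases, 15.4% are shared with Urgcp on the same strand.

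Mrps35 encodes a mitochondria-specific protein of the small subunit. Mrps35 (ENSMUSG00000040112, chromosome 6, 147042764 to 147073991, plus strand) gave 880, 1039, 812 and 1009 in WT libraries 1 to 4, 386, 451, 438 and 409 in KO libraries 1 to 4 and 764, 651, 702 and 766 in AAV libraries 1 to 4. All 4 KO libraries were lower than any other library, and the AAV libraries lay between the other groups without overlap. The log2 fold change between KO and WT was -1.15 ± 0.13 (SE, limma adjusted p = 0.000634).

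Mrps15, whose bacterial counterpart binds the small ribosomal RNA early in assembly, moved similarly. Mrps15 (ENSMUSG00000028861, chromosome 4, 126046925 to 126055532, plus strand) gave 2084, 2779, 2210 and 2378 in WT libraries 1 to 4, 1029, 1058, 1071 and 1220 in KO libraries 1 to 4 and 2054, 1474, 1510 and 1722 in AAV libraries 1 to 4. KO libraries formed the lowest group with little spread, and only AAV library 1 approached the lowest WT library. The log2 fold change was -1.10 ± 0.12 (SE, limma adjusted p = 0.000681).

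Mrps34 encodes a small subunit protein whose loss in humans causes a combined oxidative phosphorylation deficiency. Mrps34 (ENSMUSG00000038880, chromosome 17, 24895116 to 24897502, plus strand) gave 1911, 2622, 1710 and 2181 in WT libraries 1 to 4, 762, 917, 1072 and 1012 in KO libraries 1 to 4 and 1133, 1017, 1084 and 1318 in AAV libraries 1 to 4. KO and AAV libraries overlapped with each other and neither overlapped with WT libraries. The log2 fold change between KO and WT was -1.16 ± 0.16 (SE, limma adjusted p = 0.00189). Its exons overlap with Mapk8ip3 on the opposite strand (63.4% of bases) and with Nme3 on the same strand (37%), so that its reads may be shared, and whether counting used strand is not given in the sources used here.

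On the large subunit, Mrpl12 encodes the protein of the flexible stalk that recruits translation factors. Mrpl12 (ENSMUSG00000039640, chromosome 11, 120484613 to 120489065, plus strand) gave 4353, 7332, 4317 and 6057 in WT libraries 1 to 4, 2162, 2668, 2491 and 2549 in KO libraries 1 to 4 and 4346, 3477, 4286 and 4823 in AAV libraries 1 to 4. It was the second most highly counted member, and its KO libraries lay below all others. The log2 fold change between KO and WT was -1.13 ± 0.18 (SE, limma adjusted p = 0.00314). Mrpl10, which holds the stalk on the ribosome, ranged from 941 to 1150 in KO and from 969 to 1219 in WT libraries, and these groups overlapped (log2 fold change -0.09 ± 0.12 (SE, limma adjusted p = 0.623)).

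Mrpl33, a small protein with a bacterial counterpart, gave 3109, 4015, 3386 and 4000 in WT libraries 1 to 4, 1817, 1674, 1692 and 2066 in KO libraries 1 to 4 and 1997, 2183, 2733 and 3028 in AAV libraries 1 to 4. KO libraries lay below every WT library, and AAV library 1 fell within the range of the KO libraries. The log2 fold change between KO and WT was -0.997 ± 0.13 (SE, limma adjusted p = 0.00127). Its identifier, ENSMUSG00000029142, has no entry in the GENCODE annotation used here.

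Other members past a log2 fold change of -1 were Mrpl52 (-1.95), Mrpl34 (-1.25), Mrpl14 (-1.15), Mrps12 (-1.09) and Mrpl28 (-1.05). Mrpl52, a mitochondria-specific protein of the large subunit, had the largest fold change of all members but was uneven, with 1122 to 2184 normalized counts in WT, 223 to 808 in KO and 406 to 1389 in AAV libraries. The adjusted p for KO against WT was 0.00513 by limma. Mrps12, the counterpart of the bacterial protein at the decoding centre, ranged from 1309 to 2329 in WT and from 463 to 1073 in KO libraries (adjusted p = 0.0193 by limma), a call that was lost without WT library 2 (adjusted p = 0.0557 by limma) or without WT library 4 (0.058). Without each library in turn, the calls of Mrps24, Mrps35, Mrps15, Mrps34, Mrpl12, Mrpl33, Mrpl14 and Mrpl28 held.

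Not all members moved. Mrpl35 (ENSMUSG00000052962, chromosome 6, 71812997 to 71826969, minus strand) gave 1206, 1123, 1194 and 1126 in WT libraries 1 to 4, 1180, 1113, 1162 and 1115 in KO libraries 1 to 4 and 1027, 1211, 1210 and 1037 in AAV libraries 1 to 4. The ranges of the 3 groups overlapped, and the log2 fold change between KO and WT was -0.03 ± 0.10 (SE, limma adjusted p = 0.866). Mrpl44, an RNase III-like protein of the large subunit whose human defect causes cardiomyopathy, had a log2 fold change of -0.05 ± 0.14 (SE, limma adjusted p = 0.8), and Mrpl22, Mrpl47 and Mrps27 had values of -0.05, 0.05 and 0.08. Mrpl45, which helps to attach the large subunit to the inner membrane, had a log2 fold change of -0.09 ± 0.13 (SE, limma adjusted p = 0.653). The paralogs Mrps18a, Mrps18b and Mrps18c encode related proteins that occupy different sites of the ribosome, and their log2 fold changes were -0.28, 0.40 and -0.54 with adjusted p of 0.153, 0.0689 and 0.0156 by limma. The call of Mrps18c was lost without KO library 1 (adjusted p = 0.0516 by limma) and with the gene length trend removed, where its log2 fold change was -0.217 (adjusted p = 0.132). Mrps18b was the only member whose KO libraries all lay above all WT libraries (13.3% of all genes). Mrps30, a large subunit protein despite its symbol, was lower in KO libraries (658 to 753) than in WT libraries (1043 to 1650), with a log2 fold change of -0.79 ± 0.16 (SE, limma adjusted p = 0.00756). Of the genes of human deficiencies fixed by role, Mrps16 was lower (log2 fold change -0.59, adjusted p = 0.0201 by limma, but 0.0542 to 0.0582 without WT library 4 or KO library 1 or 4), while Mrps22 (-0.36, adjusted p = 0.0588) and Mrpl3 (-0.23, adjusted p = 0.17) did not pass by limma. Mrps22 did pass by DESeq2 (adjusted p = 0.0226), with the GC trend removed (0.0305), with only genes of a mean of at least 50 (0.0455) and without WT library 3 (0.0388), and Mrpl3 passed with the length trend (-0.396, adjusted p = 0.0312 by limma) or the GC trend removed (-0.355, 0.0323). Mrps36, not a ribosomal subunit, had a value of -0.35 (adjusted p = 0.324 by limma) and overlapping groups.

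Sorted by the subunit that holds the product, 22 of 48 large subunit genes and 17 of 26 small subunit genes were lower in KO libraries, with medians of -0.37 and -0.56. By origin, 23 of 46 genes with a bacterial counterpart and 16 of 28 mitochondria-specific genes were lower, with medians of -0.40 and -0.47. No test of the difference between these classes was made. Exon length moved with the fold change: 22 of the 37 genes under the median length were lower (median -0.52), compared with 16 of the 37 others (median -0.36), and Spearman's rho across the 74 genes was 0.23 with length and -0.27 with GC content. These genes share the same 8 libraries and are no independent replicates. In a further fit, the trend of log2 level on gene length over all genes was removed in each library before limma. There 28 members were lower, 2 were higher (Mrps18b and Mrpl55) and the median was -0.31. Over all genes 2130 were lower and 1544 higher with a median of -0.008. Among the 48 members with neither a near-identical copy nor an exonic overlap of at least 10% with another gene, 26 were lower and 0 higher, with a median of -0.47.

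Promoter sequences are shown for the 3 genes with the lowest adjusted p that have an entry in the RefSeq promoter table, and for Mrpl35, which had the smallest change, to set genes that were lower in KO libraries beside one that was not. Each runs from 250 bases before to 50 bases after a transcription start on the gene's strand (GRCm38.p6, RefSeq) and covers chr11:5707652-5707951 (minus strand) for Mrps24, chr4:126046678-126046977 (plus) for Mrps15, chr5:31613701-31614000 (plus) for Mrpl33 and chr6:71823735-71824034 (minus) for Mrpl35. Capitals mark matches to 3 motifs of factors known to bind promoters of mitochondrial genes, searched on both strands: the NRF1 core GCGCATGCG, the ETS motif CCGGAAG and the YY1 motif AAGATGGCG.
Mrps24: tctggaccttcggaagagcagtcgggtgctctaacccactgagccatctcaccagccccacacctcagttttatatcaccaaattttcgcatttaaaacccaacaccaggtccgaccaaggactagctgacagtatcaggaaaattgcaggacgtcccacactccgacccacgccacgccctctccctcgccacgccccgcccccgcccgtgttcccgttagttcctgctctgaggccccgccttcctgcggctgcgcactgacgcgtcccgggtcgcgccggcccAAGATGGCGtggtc
Mrps15: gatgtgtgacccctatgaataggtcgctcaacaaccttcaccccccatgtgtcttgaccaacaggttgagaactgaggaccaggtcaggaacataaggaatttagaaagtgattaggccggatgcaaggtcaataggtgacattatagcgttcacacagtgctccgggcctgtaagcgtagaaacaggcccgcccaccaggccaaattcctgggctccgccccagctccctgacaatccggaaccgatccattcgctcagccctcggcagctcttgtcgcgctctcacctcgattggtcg
Mrpl33: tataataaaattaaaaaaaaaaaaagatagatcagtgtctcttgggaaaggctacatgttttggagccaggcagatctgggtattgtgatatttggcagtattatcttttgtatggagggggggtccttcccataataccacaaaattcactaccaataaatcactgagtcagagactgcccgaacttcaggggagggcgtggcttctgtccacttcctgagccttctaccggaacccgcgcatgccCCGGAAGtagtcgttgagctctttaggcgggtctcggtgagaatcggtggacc
Mrpl35: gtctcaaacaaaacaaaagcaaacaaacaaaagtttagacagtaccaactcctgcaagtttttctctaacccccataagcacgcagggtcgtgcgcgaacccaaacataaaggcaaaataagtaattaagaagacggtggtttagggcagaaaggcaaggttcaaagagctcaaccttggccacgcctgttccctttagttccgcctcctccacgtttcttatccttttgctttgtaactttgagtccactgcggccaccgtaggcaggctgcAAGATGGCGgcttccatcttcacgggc
The YY1 motif begins 36 bases downstream of the start in Mrps24, and 23 bases downstream in Mrpl35, so that it occurred in a gene that was lower and in one that was not. The ETS motif begins 3 bases upstream of the start in Mrpl33, and no motif was found in Mrps15. Of the 66 members with a promoter entry, 23 (34.9%) held the ETS motif, compared with 18.5% of 10197 coding genes. The YY1 motif was found in 8 (12.1%, against 3.3%) and the NRF1 core in 7 (10.6%, against 3.89%). Among the members lower in KO libraries, 14 of 33 held the ETS motif, 3 the YY1 motif and 2 the NRF1 core, and among the other members 9, 5 and 5 of 33 did. A match is a run of letters and no evidence of binding. Starts of coding genes on the opposite strand lay within 1000 bases of 17 of 74 members (23%), compared with 9.57% of 13560 coding genes, and 8 of these 17 genes were lower in KO libraries.

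Between the libraries labelled AAV and KO, which asks whether the vector moved these transcripts in the knock-out muscle, 22 of the 75 genes were higher and 3 were lower at an adjusted p under 0.05 (limma, 14894 genes), against 12.8% of all genes higher and 13.4% lower. 11 of the 46 Mrpl and 11 of the 29 Mrps genes were higher. Log2 fold changes of the higher genes spanned 0.34 to 0.84, that is 1.26 to 1.79 times the KO level, and 0 members were called with a log2 fold change of at least 1 in either direction (5.43% of all genes higher, 3.55% lower). The median over the 75 genes was 0.23, compared with 0.04 over all genes, 18 genes had a negative value (47.3% of all genes), 24 had every AAV library above every KO library (14.8% of all genes) and 5 had every AAV library below (15.8%). At an unadjusted p under 0.05, 30 were higher and 5 lower (20.9% and 20.2% of all genes). This comparison uses the same KO libraries as the one before it, so that the values of the 2 comparisons are not independent. edgeR gave 21 higher and 3 lower (1980 and 2047 over all genes), and DESeq2 gave 22 and 4 (2437 and 2338), compared with 1911 and 1999 of all genes by limma. Without AAV library 4, 19 were higher and 2 lower (1577 and 1663 over all genes). Without KO library 1 or 2 the number of higher genes fell to 13 and 14, while that over all genes fell to 982 and 1034, and without AAV library 1 or KO library 1, 2 or 4, 0 were lower, while the lower genes overall fell to between 970 and 1179.

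The lowest adjusted p belonged to Mrps35, for which all AAV libraries (651 to 766) lay above all KO libraries (386 to 451), with a log2 fold change of 0.77 ± 0.11 (SE, limma adjusted p = 0.00298). For Mrpl12 the AAV libraries ranged from 3477 to 4823 and the KO libraries from 2162 to 2668 (log2 fold change 0.77 ± 0.12 (SE, limma adjusted p = 0.00464)). Mrps15 had a log2 fold change of 0.62 ± 0.13 (SE, limma adjusted p = 0.01). In all of these genes the groups did not overlap, and the AAV mean stayed below the WT mean. Mrpl28, a large subunit protein with a bacterial counterpart, gave 2499, 3618, 2628 and 3675 in WT libraries 1 to 4, 1135, 1678, 1668 and 1504 in KO libraries 1 to 4 and 2393, 2531, 2643 and 3041 in AAV libraries 1 to 4. AAV libraries overlapped with WT libraries and lay above all KO libraries, and the log2 fold change between AAV and KO was 0.84 ± 0.14 (SE, limma adjusted p = 0.00565). Mrps9 gave 1089, 1591, 1260 and 1578 in WT libraries 1 to 4, 774, 925, 971 and 783 in KO libraries 1 to 4 and 1483, 1591, 1279 and 1288 in AAV libraries 1 to 4. Its AAV libraries lay within the range of the WT libraries, and its log2 fold change between AAV and KO was 0.71 ± 0.12 (SE, limma adjusted p = 0.0059). Mrpl41, a mitochondria-specific protein of the large subunit, gave 784, 1049, 791 and 1026 in WT libraries 1 to 4, 431, 558, 563 and 477 in KO libraries 1 to 4 and 761, 769, 740 and 907 in AAV libraries 1 to 4. Here too AAV libraries lay above all KO libraries (log2 fold change 0.65 ± 0.13 (SE, limma adjusted p = 0.0083)).

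Mrpl45 was higher in AAV than in KO libraries (2509 to 2826 against 1859 to 2164) and had the highest group mean in AAV libraries, with a log2 fold change of 0.40 ± 0.10 (SE, limma adjusted p = 0.0176), a call lost without KO library 1 or 4 (0.0534 and 0.058). Mrps24 rose by only 0.42 on the log2 scale (adjusted p = 0.0373 by limma), a call lost in 6 of the 8 fits that left out 1 library (log2 fold changes of 0.337 to 0.495) and with the GC trend removed (0.263, adjusted p = 0.119 by limma). Mrps12 (0.82, adjusted p = 0.0383 by limma) and Mrpl33 (0.44, adjusted p = 0.0495) were also called and each lost the call without single libraries, among them KO library 1 (adjusted p of 0.0509 and 0.101). The 3 members lower in AAV than in KO libraries were Mrps18b, Mrpl50 and Mrpl55. Mrps18b (ENSMUSG00000024436, chromosome 17, 35910379 to 35916389, minus strand) gave 408, 407, 439 and 297 in WT libraries 1 to 4, 513, 535, 472 and 504 in KO libraries 1 to 4 and 263, 366, 415 and 242 in AAV libraries 1 to 4. Its KO libraries were the highest of all groups, and the log2 fold change between AAV and KO was -0.69 ± 0.18 (SE, limma adjusted p = 0.0207). The call was lost without KO library 1, 2 or 4 or AAV library 1 (adjusted p of 0.0542 to 0.059 by limma). An antisense gene, Gm16279, shares 30.5% of its exonic bases, and a processed pseudogene, Gm13552, is 99.8% identical to it over 51.9% of the transcript. Mrpl50 (-0.49, adjusted p = 0.0309 by limma) and Mrpl55 (-0.37, adjusted p = 0.0494) had ranges of 943 to 1495 and 839 to 1077 in AAV libraries, and of 1678 to 1790 and 1102 to 1450 in KO libraries. Neither range overlapped between the groups, but the call of Mrpl50 was lost without any KO library or AAV library 1, and that of Mrpl55 without any single library except AAV library 3. Scaling by total reads also ended both calls (log2 fold changes of -0.325 and -0.208, adjusted p of 0.0642 and 0.247 by limma), and removal of the GC trend that of Mrpl50 (-0.262, adjusted p = 0.109).

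**Figure D3:**
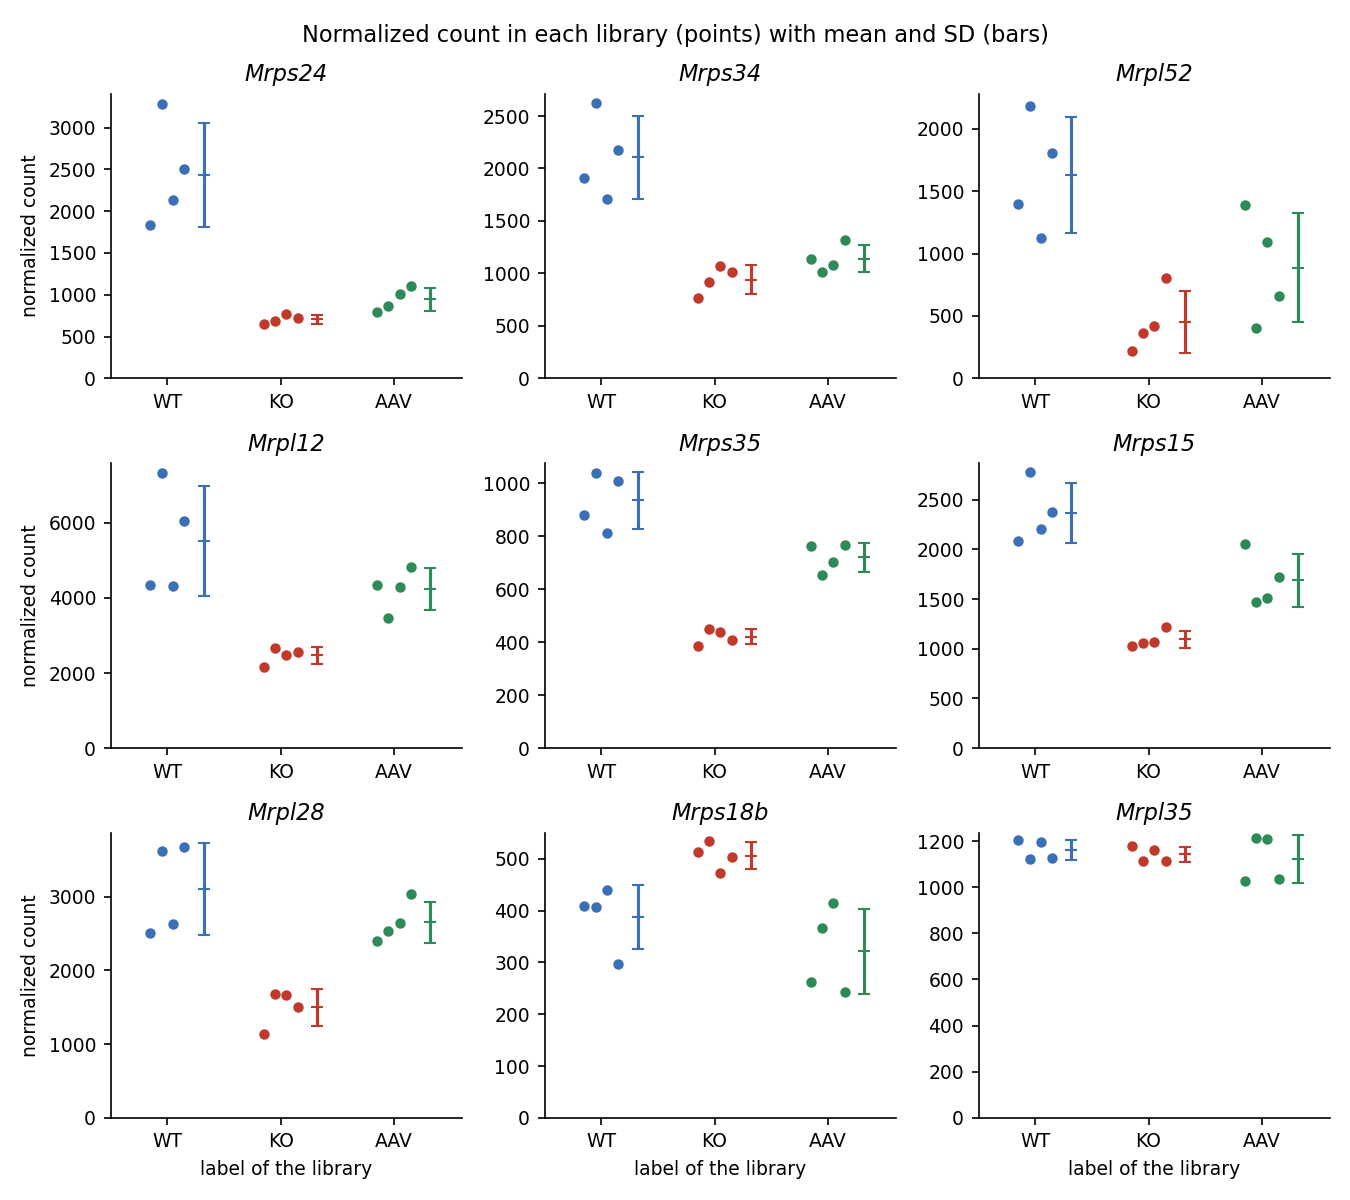
Normalized count (vertical axis, starting at 0) of 9 genes in each of the 4 libraries per label (points), with the group mean and SD beside them. Mrps24 and Mrps34 are low in KO and AAV libraries, Mrpl12, Mrps35, Mrps15 and Mrpl28 are lowest in KO libraries, Mrps18b is highest in KO libraries and Mrpl35 is level.

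Between the libraries labelled AAV and WT, 2 of the 75 genes were lower and 0 were higher at an adjusted p under 0.05 (limma, 14939 genes), against 0.341% of all genes lower and 0.951% higher. Both were small subunit genes, Mrps24 with a log2 fold change of -1.34 ± 0.20 (SE, limma adjusted p = 0.0206) and Mrps34 with -0.88 ± 0.16 (SE, limma adjusted p = 0.0438). Mrps24 thus had a mean of 947 ± 139 in AAV libraries (SD, n = 4), that is 0.395 times the WT level and the 1 call with a log2 fold change of -1 or below (0.221% of all genes), and Mrps34 had 1138 ± 129, or 0.545 times. Both calls were lost when WT library 2 and AAV library 4 were left out together, with log2 fold changes of -1.27 and -0.84 (adjusted p = 0.0627 and 0.129 by limma), in a fit that left 4 lower and 6 higher of all genes, compared with 51 and 142 in the fit of all 8 libraries. Mrps24 also lost its call without WT library 4 (adjusted p = 0.0517 by limma), AAV library 1 (0.0731) or AAV library 2 (0.1), and Mrps34 without any single library other than WT library 3 (0.0536 to 0.147). Over the 75 genes the median log2 fold change was -0.24, compared with -0.03 over all genes, 66 genes had a negative value (53.2% of all genes), 17 had every AAV library below every WT library (4.97% of all genes) and 0 had every AAV library above (6.69%). At an unadjusted p under 0.05, 20 were lower (7.78% of all genes) and 0 were higher (10.4%), and edgeR and DESeq2 gave 2 and 4 lower and 0 higher. Over all genes, DESeq2 gave 327 lower, compared with 51 by limma. The next lowest adjusted p belonged to Mrps22 and Mrpl3, both genes of human deficiencies and neither called by limma in this comparison. DESeq2 called both (adjusted p of 0.0036 and 0.0365), as did limma with all 12 libraries in one fit (0.0123 and 0.0325). Mrps22 gave 522, 426, 450 and 421 in WT libraries 1 to 4, 338, 371, 325 and 377 in KO libraries 1 to 4 and 178, 295, 309 and 231 in AAV libraries 1 to 4. The AAV libraries were the lowest group and did not overlap with the KO libraries (log2 fold change between AAV and WT -0.87 ± 0.20 (SE, limma adjusted p = 0.0651)). Mrpl3 gave 985, 964, 1190 and 1065 in WT libraries 1 to 4, 807, 959, 939 and 881 in KO libraries 1 to 4 and 471, 746, 766 and 752 in AAV libraries 1 to 4. AAV library 1 stood apart at the low end, and the log2 fold change was -0.64 ± 0.18 (SE, limma adjusted p = 0.119).

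By group means, 48 of the 75 genes followed the order WT, AAV, KO from high to low. In 13 the order was WT, KO, AAV, as in Mrps22 and Mrpl3, in 7 AAV, WT, KO, in 5 KO, WT, AAV, as in Mrps18b, and in 2 AAV, KO, WT. These orders rest on means and not on tests, and neighbouring means often differed by less than the spread within a group.

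Other genes of mitochondrial translation were compared with the same fits, where 15.3% of all genes were lower and 12.3% higher in KO than in WT libraries. At this threshold the translation and assembly factors did not exceed these shares. Of 7 subunits of the mitochondrial ribosome with other symbols, 4 were lower in KO than in WT libraries and 0 higher, with a median log2 fold change of -0.60. They were Gadd45gip1 (-1.67, adjusted p = 0.0014 by limma), Mrp63 (-1.52, 0.0044), Ict1 (-0.94, 0.0092), which encodes a peptidyl-tRNA hydrolase built into the large subunit, and Chchd1 (-0.60, 0.0057). Of 15 mitochondrial translation factors, 2 were lower and 0 higher (median -0.10), namely the elongation factor genes Tufm (-0.50, adjusted p = 0.035 by limma) and Tsfm (-0.60, 0.0335), and without WT library 2 neither count held a gene (0 and 0). At an unadjusted p under 0.05, 5 translation factors were lower and 2 higher (21.8% and 20.6% of all genes), and 5 had every KO library below every WT library (15.1% of all genes). Of 22 assembly factors, 3 were lower and 1 higher (median -0.11). Malsu1, which keeps the subunits apart during assembly, was lower (-1.05, adjusted p = 0.0015 by limma), as were Ngrn (-0.85, 0.0039) and Mpv17l2 (-0.69, 0.0246), and Eral1, a chaperone of the small ribosomal RNA, was higher (0.40, 0.0277). Of 20 mitochondrial tRNA synthetases, 0 were lower and 1 was higher (Rars2), with a median of 0.06, and at an unadjusted p under 0.05 these counts were 0 and 3. None of 6 genes of mitochondrial transcription passed, a list that includes Twnk and Polg, which replicate mitochondrial DNA. Nor did any of 7 genes encoded by mitochondrial DNA, which are only part of its protein genes. In both lists 0 passed at an unadjusted p under 0.05 and 0 by edgeR and DESeq2, and the medians were 0.07 and 0.15. The 7 genes summed to 1681400, 1117300, 3222200 and 1628900 in WT libraries 1 to 4. All KO sums (1935700 to 2244700) lay above every WT library except library 3. Of the 7, only mt-Nd6 had a negative value (-0.63, adjusted p = 0.119 by limma).

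Larger families of neighbouring function were described in the same way. Of 37 nuclear genes of complex I, which holds several products of mitochondrial translation, 27 were lower and 2 higher in KO than in WT libraries (median -0.66). Of 81 cytosolic ribosomal protein genes, 39 were lower and 5 higher (median -0.57), and without WT library 2 the lower genes numbered 23 in complex I and 22 in the cytosolic ribosome, while those over all genes fell from 2271 to 1509. With the gene length trend removed they numbered 16 and 24 (2130 over all genes). Between AAV and KO libraries, where 12.8% of all genes were higher and 13.4% lower, 17 complex I genes and 21 of 82 cytosolic ribosomal protein genes were higher, and 1 and 5 were lower, with medians of 0.36 and 0.29. Among the subunits with other symbols 2 were higher (Gadd45gip1 and Ict1, with 0.93 and 0.60) and 0 lower, among assembly factors 3 and 2, among translation factors 1 and 1, and among tRNA synthetases 1 and 3. Of these, both counts of translation factors and of tRNA synthetases and the lower assembly factors fell to 0 in some of the fits that left out 1 library, and with the gene length trend removed 0 tRNA synthetases, 1 assembly factor and 2 translation factors were lower. Without KO library 1, 2 or 4, 12 cytosolic ribosomal protein genes were higher, and without KO library 4, 11 complex I genes. Of the 7 genes of mitochondrial DNA, 3 were lower in AAV than in KO libraries and 0 higher, namely mt-Nd5 (-1.53, adjusted p = 0.0082 by limma), mt-Nd2 (-1.34, 0.0221) and mt-Co1 (-1.14, 0.0281), with a median of -0.75. The only positive value was that of mt-Nd6 (0.52, adjusted p = 0.233 by limma). Without KO library 1, 2 or 4, 1 of the 7 was lower, and by DESeq2 6 were. Between AAV and WT libraries the called genes of these lists were Malsu1 (-0.97, adjusted p = 0.0393 by limma) and 1 complex I gene, both lower. The call of Malsu1 was lost without any single library other than WT library 3 or AAV library 3, and that of the complex I gene without AAV library 1 or 2, and both without WT library 2 and AAV library 4 together.

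**Figure D4:**
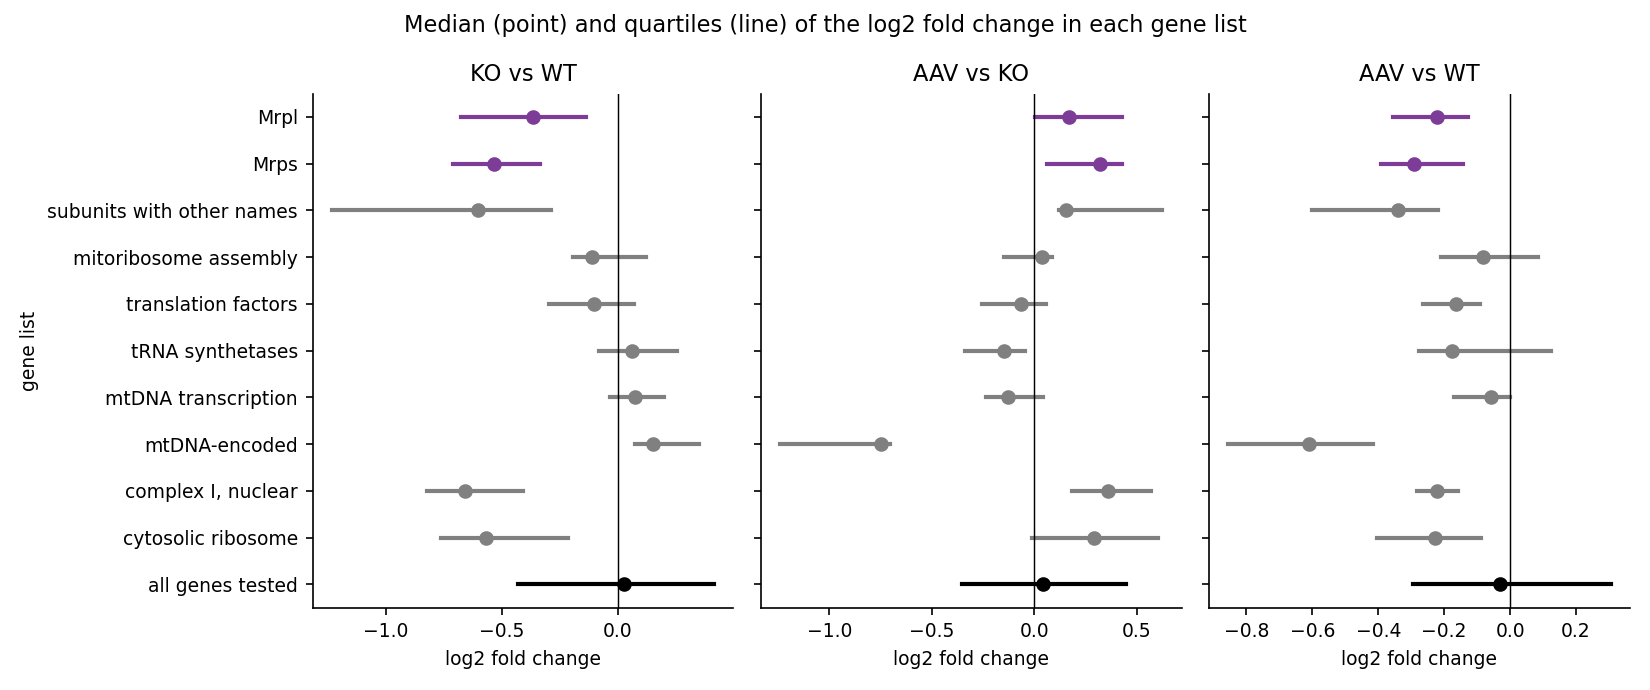
Median (point) and lower and upper quartile (line) of the log2 fold change (horizontal axis, each panel with its own scale) for each gene list (vertical axis) in the 3 comparisons. The Mrpl and Mrps lists (purple) lie below all genes tested (black) in KO vs WT and AAV vs WT and above them in AAV vs KO, and the genes encoded by mitochondrial DNA lie lowest in AAV vs KO.

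Markers of fibre type and of other cells moved in the same comparisons. All 6 markers of slow or oxidative fibres (Myh7, Tnni1, Tnnt1, Tnnc1, Myl2 and Myh2) were lower in KO than in WT libraries (median log2 fold change -3.51) and higher in AAV than in KO libraries (median 5.18). Their summed normalized count lay between 8692 and 50896 in WT, between 2239 and 11799 in KO and between 16157 and 90780 in AAV libraries, and no marker was at 0 in any library. The KO means of Tnni1 and Myh7 were 11.7 and 13.2. Of 5 macrophage markers, 4 were lower in KO than in WT libraries, with sums of 1102 to 3884 in WT, 554 to 1037 in KO and 603 to 3380 in AAV libraries, and none was at 0. Of 4 endothelial markers, 2 were higher in KO than in WT libraries, with sums of 1406 to 4296 in WT and 3402 to 4581 in KO libraries. Among the 7 muscle fibre markers, Myh1 and Des were lower and Myh4, the myosin of the fastest glycolytic fibres, was higher in KO than in WT libraries (log2 fold changes -1.36, -1.03 and 0.73), and Myh1 and Des were higher in AAV than in KO libraries (1.09 and 0.72, adjusted p = 0.0218 and 0.0267 by limma). Of 3 blood markers, Hba-a1 was higher in AAV than in KO libraries (2.16, adjusted p = 0.0296 by limma), and their sum was 1700, 465, 157 and 1474 in KO libraries 1 to 4, 1141 to 1623 in WT and 1271 to 3520 in AAV libraries, with none at 0. Of 2 satellite cell markers, Pax7 was higher in AAV than in KO libraries (0.68, adjusted p = 0.0303 by limma), with sums of 138 to 205 in AAV, 94.1 to 125 in KO and 99.8 to 212 in WT libraries. No marker of fibroblasts, adipocytes or Schwann cells passed in any of the 3 comparisons by limma, and at an unadjusted p under 0.05 1 fibroblast marker was lower in KO than in WT libraries and 1 adipocyte and 1 Schwann cell marker were higher in AAV than in WT libraries. The part of these markers in the values of the mitochondrial ribosomal protein genes was not tested.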

How the data were processed

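RNA-Seq of mouse quadriceps was analysed from 12 libraries (4 WT, 4 KO, 4 AAV), grouped by the sample labels. Per the methods and the submitters' processing notes, the authors trimmed reads with Trim Galore 0.4.1, mapped them to GRCm38 with STAR, counted uniquely mapping reads per gene with HTSeq 0.6.1 and divided each library by 1 DESeq2 1.16.1 size factor. The deposited signal values are these normalized counts. Dividing by 1 step per library gave whole reads for 100% of values in all libraries (tolerance 0.1). The deposited tables also hold the authors' log2 fold changes, standard errors, test statistics (a score) and p-values of their 2 comparisons, which were not used. KO values differed between the tables by 0, which put all groups on one scale, and 0 value columns were left out.

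limma 3.58.1 with a trend was fitted in R 4.3.3 to log2(normalized count + 1) for genes that reached 10 in at least 1 of the 8 libraries of a comparison, and p-values were adjusted over all genes (Benjamini-Hochberg). Calls were made at an adjusted p under 0.05. Alternatives were edgeR 4.0.16 (quasi-likelihood, TMM) and DESeq2 1.42.0 on recovered reads, other scalings, filters and a pseudocount of 0.1, removal of length or GC trends (lowess span 0.3), a replicate block, all libraries in one fit and libraries left out. The fits were also run on simulated data with the same dispersion for every gene. That setting is simpler than these libraries, and no result above rests on it. Lengths, overlaps and coordinates came from GENCODE M21 on GRCm38, and copies were transcripts matching at 90% identity over 50% of the length.

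The members, gene lists and markers were chosen with earlier results of these data known. Members named with values were the 6 with the lowest adjusted p in each comparison, up to 4 called against the main direction, the 3 highest and lowest by level, and a list fixed by role. Mrpl52, Mrpl34, Mrpl35, Mrpl22, Mrpl47, Mrps27 and Mrpl16 were named after their values were seen. Python 3.11.15 with pandas 2.3.3, numpy 2.4.6 and matplotlib 3.10.9 was used for summaries and figures.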

Additional observations from a re-analysis of the deposited data

Results flagged for a closer look

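In each group of 4 libraries, the gap between the highest or lowest library and its nearest neighbour was compared with the range of the group (Dixon's 95% critical value for 4 values). Of 93 groups of values tested, 4 passed, and chance gives about 1 in 20. Gaa was far above the rest of its group in WT library 2 (14640, gap 0.99 of the range) and in AAV library 4 (9854, gap 0.952). Mrpl14 was highest in AAV library 4, at 3208 against 2088 to 2279 in the other AAV libraries. Mrpl3 was lowest in AAV library 1, at 471 against 746 to 766 in the other AAV libraries (gap 0.931), and this library had the fewest reads.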

How the results depend on the processing

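The negative median of the 75 genes between KO and WT and between AAV and WT libraries, and the positive median between AAV and KO libraries, kept their sign in every alternative run, with ranges of -0.48 to -0.31, -0.272 to -0.089 and 0.15 to 0.40. With each library left out in turn, 27 to 42 genes were lower and 0 to 3 higher in KO than in WT libraries, 13 to 22 were higher and 0 to 5 lower in AAV than in KO libraries, and 0 to 2 were lower in AAV than in WT libraries. Over all genes the same fits gave 1355 to 3578 lower and 915 to 3585 higher, 982 to 2528 higher and 970 to 2543 lower, and 4 to 124 lower. Genes higher in KO libraries numbered 2 with the gene length trend removed and 1 with the GC trend removed (1544 and 1998 over all genes, compared with 1826). Between AAV and KO libraries, scaling by total reads gave 33 higher and 1 lower (2397 and 1271 over all genes, compared with 1911 and 1999) and a median of 0.40, but moved the median of all genes from 0.04 to 0.21, and the median was 0.15 with the gene length trend removed. The fit of all 12 libraries gave 1 lower (1318 over all genes). Between AAV and WT libraries, DESeq2 gave 4 lower, scaling by total reads 1 (median -0.089, against 0.12 over all genes), the fit of all 12 libraries 6 (327, 35 and 295 over all genes, compared with 51), and leaving out WT library 2 and AAV library 4 together 0 (4 over all genes). With the replicate number as a block, 33 genes were lower in KO than in WT libraries, 13 were higher and 1 lower in AAV than in KO libraries, and 1 was lower in AAV than in WT libraries (1784, 1089, 1090 and 31 over all genes). Deviations of libraries with the same number correlated between -0.36 and 0.56, and not every library correlated best with its own number, so that the numbers were not taken as pairs.

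Signs turned for values that were not called by limma, between -0.32 (Mrps36, AAV against WT) and 0.28 (Mrps34, AAV against KO). The value of Mrpl28 between AAV and WT libraries, which also turned, was -0.21. Removal of the length trend gave 0.214 for Mrpl10, 0.25 for Mrpl44 and 0.035 for Mrpl45 in KO against WT libraries, -0.09 for Mrpl10 and -0.026 for Mrps36 in AAV against KO libraries, and 0.127 for Mrpl10, 0.006 for Mrpl28, 0.074 for Mrpl41, 0.107 for Mrpl55, 0.117 for Mrps28 and -0.024 for Mrps9 in AAV against WT libraries. Removal of the GC trend gave 0.008 for Mrpl30 and -0.026 for Mrps34 in AAV against KO libraries. Scaling by total reads gave 0.012 for Mrpl30 in AAV against KO libraries, and 0.147 for Mrpl10, 0.101 for Mrps18a and 0.007 for Mrps28 in AAV against WT libraries, where edgeR gave 0.017 and TMM scaling 0.008 for Mrpl10. Without WT library 2 and AAV library 4 together the values were 0.064 for Mrpl10, 0.036 for Mrps18a and 0.079 for Mrps36. With libraries left out in turn, the ranges were -0.119 to 0.029 for Mrpl44 and -0.158 to 0.02 for Mrpl45 in KO against WT libraries, -0.267 to 0.004 for Mrpl30 and -0.305 to 0.2 for Mrps36 in AAV against KO libraries, and -0.057 to 0.054 for Mrpl10, -0.121 to 0.047 for Mrps18a and -0.065 to 0.118 for Mrps9 in AAV against WT libraries. The cause of these differences was not tested. Counting error is largest for Mrpl23, Mrps33 and Mrps36, which had the fewest reads, and for AAV library 1, the shallowest.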
